A study of Mus musculus with 7 samples.

Results

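Of the 287 gene regulatory elements (GREs) that were screened for activity in somatostatin (SST) interneurons of mouse visual cortex, 21 overlapped an exon or lay at the end of a gene according to the annotation deposited with the library. These were 17 GREs annotated to an exon, 2 to a transcription termination site (TTS), 1 to a 3′ UTR and 1 to a non-coding transcript, and they are the subject here. The remaining GREs were annotated to introns (84) or to intergenic sequence (182). The choice among the 287 used the annotation only and no measured viral activity, and it was made with earlier results of these data known. The study had picked the 287 for conservation and for more ATAC-Seq signal in SST than in PV and VIP nuclei.

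In the screen, each GRE was cloned in front of a minimal promoter that drives GFP in an AAV9 vector, and 3 short viral barcodes in the transcript reported each GRE. The library was injected into V1 of C57BL/6J mice of 6 to 10 weeks, given as male in the labels, at 2 sites per animal. Nuclei were then profiled with inDrops single-nucleus RNA-Seq as 1 deposited sample, made up of 10 libraries in 2 sets of 5. ATAC-Seq reads came from uninjected mice of 6 to 12 weeks, with 2 samples per cell type, in which Sst-IRES-Cre, Pv-Cre or Vip-IRES-Cre was combined with the Cre-dependent nuclear tag SUN1-2xsfGFP-6xMYC. These nuclei were taken from whole cortex, so that the tagged population is set by each Cre driver. No label names the animal behind a library, the 10 libraries belong to a single sample, and nuclei of different classes were compared by their values with no test. Intervals below are exact 95% intervals that cover the counting of UMIs only.

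Enhancers raise transcription from a promoter at a distance and largely independently of their orientation. Most lie in introns or between genes, but transcription factors also bind within coding exons, where the same bases then carry a regulatory and a protein-coding sequence. A screen on a viral vector reads such a fragment outside its gene, as a piece of DNA in front of a foreign promoter. SST interneurons are GABAergic cells of the cortex, many of which contact the distal dendrites of excitatory neurons. They are marked by the neuropeptide that the Sst gene encodes.

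The annotated regions of the 21 GREs were between 300 and 719 bp wide. Per the study's methods, the primers added genomic flanks to both sides of each region, so that the cloned inserts were longer than the regions described here. Coordinates, gene parts, GC content and motifs below are those of the annotated regions, and the flanks were not analysed here. Protein-coding bases made up part of 17 of them, and 5 were coding over their whole length. Coordinates are those of GRCm38 (mm10), counted from 1, and gene models are from RefSeq. GRE222 was the only one whose region reached the start of its gene. It covered 238 bp of the first exon of Sst in the annotated transcript, 112 bp of the promoter and bases past the end of that exon. It held the cyclic AMP response element (CRE) TGACGTCA, a palindrome bound by CREB. The CRE spanned 48 to 41 bp upstream of the Sst start. The promoter bases are shown because this is the only GRE taken from the gene that defines the target cells. They are written 5′ to 3′ on the minus strand, which is that of Sst, with the CRE in capitals, from chr16:23890845-23890956.
GRE222, upstream of Sst: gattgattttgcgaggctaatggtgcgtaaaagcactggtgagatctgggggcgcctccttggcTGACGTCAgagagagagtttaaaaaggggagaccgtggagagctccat

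The coding exons inside 4 further GREs are shown because these GREs marked the range of the readout, with the most UMIs (GRE89), among the highest SST folds (GRE84 and GRE225) and the lowest (GRE119) of members with 300 UMIs or more. Capitals mark the coding bases, lower case marks up to 10 bp of flanking intron, and each is written on the strand of its gene. The runs come from chr13:117267310-117267582 (plus strand), chr2:162135202-162135483 (minus), chr4:48083095-48083352 (plus) and chr3:141857394-141857606 (minus).
GRE89, Emb exon 6 of 9: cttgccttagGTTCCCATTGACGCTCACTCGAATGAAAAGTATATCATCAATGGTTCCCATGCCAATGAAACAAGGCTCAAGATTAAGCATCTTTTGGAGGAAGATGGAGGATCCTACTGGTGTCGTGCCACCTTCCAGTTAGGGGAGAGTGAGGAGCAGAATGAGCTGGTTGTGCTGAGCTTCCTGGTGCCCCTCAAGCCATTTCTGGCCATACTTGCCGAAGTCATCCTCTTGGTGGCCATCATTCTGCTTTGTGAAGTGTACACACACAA
GRE84, Ptprt exon 7 of 31: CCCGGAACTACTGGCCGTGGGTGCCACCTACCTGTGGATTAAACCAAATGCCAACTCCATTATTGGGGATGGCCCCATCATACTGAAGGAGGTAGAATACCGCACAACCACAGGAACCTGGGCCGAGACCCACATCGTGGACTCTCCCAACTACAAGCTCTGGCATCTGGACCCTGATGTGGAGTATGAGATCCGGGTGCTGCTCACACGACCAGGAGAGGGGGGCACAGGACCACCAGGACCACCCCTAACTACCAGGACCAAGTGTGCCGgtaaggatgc
GRE225, Nr4a3 exon 6 of 6: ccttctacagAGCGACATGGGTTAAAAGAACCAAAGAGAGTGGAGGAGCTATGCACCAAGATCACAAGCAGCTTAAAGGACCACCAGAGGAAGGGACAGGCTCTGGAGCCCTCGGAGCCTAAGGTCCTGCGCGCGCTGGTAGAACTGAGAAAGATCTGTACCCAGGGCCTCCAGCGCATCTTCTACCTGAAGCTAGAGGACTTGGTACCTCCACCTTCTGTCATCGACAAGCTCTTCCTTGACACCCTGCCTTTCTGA
GRE119, Bmpr1b exon 7 of 11: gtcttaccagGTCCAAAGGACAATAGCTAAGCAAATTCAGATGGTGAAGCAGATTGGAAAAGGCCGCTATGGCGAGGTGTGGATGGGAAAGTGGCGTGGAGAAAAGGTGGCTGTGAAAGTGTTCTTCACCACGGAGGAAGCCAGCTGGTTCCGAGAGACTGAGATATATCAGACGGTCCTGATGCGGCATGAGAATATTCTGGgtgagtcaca

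The capitals cover 263 coding bases of GRE89, 272 of GRE84, 248 of GRE225 and 193 of GRE119. The run of GRE225 ends with the stop codon of Nr4a3, and GRE89 and GRE84 each hold 1 of the exon's splice sites within the annotated region. The region of GRE119 holds both.

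As a set, the 21 regions were richer in G and C than the rest of the library. Their median GC content was 49.5%, against 42.3% for intronic and 40.4% for intergenic GREs, and the values ranged from 35.7% to 63.7%. The median number of CpG dinucleotides was 7, against 3 over all 287. The phyloP conservation score that the authors deposited for each region had a median of 0.823 in these GREs and 0.717 over the library. Per the study's methods, only regions above a score of 0.5 could enter the library, so both medians are of selected regions. Motifs were searched on both strands as exact letters, and a match is a description of the sequence only. The AP-1 letters TGANTCA were present in 4 of 21 (19.0%) and in 25.1% of all GREs. The homeodomain core TAATTA was present in 3 of 21 (14.3%) and in 13.6% of all. The CRE of GRE222 was the only one in the 287 annotated regions (0.348%). The letters AAAGGTCA, the nuclear receptor element NBRE, were in none of the 21 and in 1.05% of all, and the palindromic NFI motif was in none of the 21 and in 0.348% of all.

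Above a minimum of 200 non-viral UMIs there were 32335 nuclei among 47348 droplet barcodes, and the 10 libraries held between 2496224 and 3041931 non-viral UMIs each. Kept nuclei carried 15.7 viral UMIs on average, from 7.47 in library 2-5 to 19.2 in library 1-5. Of 25866 distinct droplet barcodes among kept nuclei, 5476 were found in more than 1 library. A nucleus was assigned to the cell class whose marker list had at least 3 UMIs and at least 2 times the UMIs of the next list. This gate held 630 SST, 218 PV, 451 VIP, 295 NPY and 16640 excitatory nuclei, with glial and vascular classes beside them, and left 9857 nuclei unassigned. The SST gate rests on the Sst transcript, at 187.8 UMIs per 10000 in SST-gated nuclei against 0.340 in excitatory ones, and 163 nuclei outside the gate also had 3 or more Sst UMIs. The median number of non-viral UMIs was 893 in SST, 1294 in PV, 615 in VIP, 864 in NPY and 971 in excitatory nuclei. It was 392 in astrocytes, 298 in oligodendrocytes, 314 in their precursors, 346 in microglia and 1139 in vascular nuclei. Levels and folds of the GREs are per nucleus and were not scaled to these counts. Doublets were not removed.

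All 63 viral barcodes of the 21 GREs were detected. Together they gave 49270 UMIs in kept nuclei, 9.79% (9.71 to 9.87) of the 503357 UMIs of all GREs, and the totals of single GREs ran from 24 for GRE281 to 15649 for GRE89. GRE89, from an inner exon of Emb (embigin, a transmembrane protein of the immunoglobulin superfamily), had the most UMIs of all 287 GREs and gave 31.8% of the UMIs of the set. With GRE92, in the 3′ UTR of Hmbox1, it gave 49.4%. There were 15 GREs with at least 300 UMIs and 6 with fewer. How much of each vector the injected library held was not analysed here, so a total is not a measure of activity.

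Per nucleus, the 21 GREs together gave 3.53 UMIs in SST, 3.47 in PV, 1.84 in excitatory, 1.65 in NPY and 1.45 in VIP nuclei. Astrocytes had 0.879, and oligodendrocytes, their precursors, microglia and vascular nuclei had between 0.412 and 0.491. SST and PV nuclei thus held the highest levels. They also held the most UMIs of all GREs together, 48.4 and 42.5 per nucleus, against 18.3 in excitatory nuclei. From imaging of a control vector that lacked a GRE, the paper proposes that the vector has some baseline preference for SST cells. The part of such a preference in these levels was not tested. Droplets at or under 200 non-viral UMIs, which are not counted as nuclei, still carried 0.829 UMIs of these GREs each, and their part in the levels of other classes was not tested.

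Measured as a share of all GRE UMIs, the order was different. The 21 GREs took 7.30% (7.01 to 7.59) of the GRE UMIs in SST-gated nuclei, against 9.95% in all other nuclei. The share was 8.18% (7.63 to 8.75) in PV, 8.80% (8.06 to 9.57) in NPY, 10.3% (9.54 to 11.1) in VIP, 10.0% (9.93 to 10.1) in excitatory nuclei and 11.7% (11.2 to 12.3) in astrocytes. It was 8.99% (8.34 to 9.67) in oligodendrocytes, 10.1% (8.28 to 12.1) in their precursors, 9.80% (8.58 to 11.1) in vascular nuclei and 7.44% (6.16 to 8.90) in microglia. Over all libraries the interval of microglia overlaps that of SST nuclei, and the order of the classes differed between the library sets. In set 1 microglia had 5.99% and SST nuclei 6.64%, and in set 2 NPY nuclei had 6.89%, oligodendrocytes 7.82% and SST nuclei 7.98%. Over the 10 libraries, the share in SST nuclei had a lowest value of 5.32%, a median of 7.51% and a highest of 9.27%, and in other nuclei it lay between 9.53% and 10.4%. In each of the 10 libraries the share in SST nuclei was below that in the other nuclei of the same library. The 2 ranges over libraries do not overlap. Without GRE89 the shares were 5.36% in SST and 6.99% in other nuclei, and without GRE89 and GRE92 they were 4.33% and 5.26%. These 2 settings were added after the data were seen.

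The SST fold is the mean UMIs per SST-gated nucleus over the mean in all other kept nuclei, with 0.01 added to each mean, and a fold above 2 was taken as a call of size. Of the 21 GREs, 13 (61.9%) had a fold above 2, against 50.2% of all 287 GREs, 52.4% of intronic and 47.8% of intergenic ones. Among those with 300 UMIs or more, 11 of 15 were above 2 (73.3%), against 71.5% in the library. The median fold was 2.28 for the 21 GREs and 2.01 for all. Both medians are of folds pooled over libraries, and each is above the median within any single library. Within single libraries the median ran from 0.87 to 2.20 for the 21 and from 0.92 to 1.73 for all. Which of the 2 medians was higher differed between libraries. The count above 2 was thus near that of the library, and with Leiden clusters in place of the gate it was 8 of 21 (38.1%), below the 44.3% of the library. With the 0.01 added, none of the 21 reached a fold of 4, a value passed by 26 of all 287 GREs (9.06%), of which 10 were intronic and 16 intergenic. The largest fold was then 3.60 in the 21 and 10.0 in the library. Both statements depend on the added 0.01. Without it, GRE39 had 14.8 (6.52 to 30.6), GRE281 10.1 (2.50 to 30.05) and GRE272 8.65 (5.57 to 13.0), each on few UMIs. Of the SST UMIs, 90.0% for GRE39 and 82.1% for GRE272 came from 1 nucleus. The library count above 4 without the 0.01 was not taken here. Pooled over their UMIs and without the added 0.01, the 21 GREs had a fold of 2.38, against 3.10 for intronic, 3.47 for intergenic and 3.24 for all GREs. For the 21 against all GREs this restates the shares above, since it uses the same counts. Without GRE89 the pooled fold was 2.51. By that measure 4 of 21 were above the fold of all GREs pooled (GRE272, GRE39, GRE281 and GRE127, each with under 500 UMIs), against 37.3% of the library. A fold whose lower bound was above 2 was found for 7 of 21, against 38.7% of the library.

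Folds of single GREs varied between the 2 sets of libraries and between viral barcodes. The fold was above 2 for 8 of 21 (38.1%) in set 1, against 43.6% of all GREs, and for 12 of 21 (57.1%) in set 2, against 52.3%. It was above 2 in both for 4 of 21, against 33.1% of all GREs. These 4 were GRE225, GRE82, GRE115 and GRE124. None of the 21 was above 2 for each of its 3 barcodes, against 13.6% of all GREs. In the 21 GREs the most abundant barcode gave between 37.3% and 86.7% of the UMIs, and for a barcode with few UMIs the added 0.01 holds the fold near 1. The fold was higher in set 2 for 16 of the 21, and so was that of all GREs pooled, at 2.81 in set 1 and 3.87 in set 2.

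Leaving out 1 library changed the side of 2 for 9 of the 13 GREs above it. GRE272 had 1.15 without library 1-5, GRE39 had 0.919 without library 1-2 and GRE127 had 1.75 without library 2-3. GRE62 had 1.53 without library 2-4 and 1.64 without 2-5, and GRE287 had 1.72 without 1-3. GRE124 had 1.78 without 1-3 and 1.79 without 2-2, and GRE89 had 1.89 without either 1-2 or 2-4. GRE115 had 1.97 without 1-4 and GRE82 had 1.99 without 2-2. The 4 that stayed above 2 without any single library were GRE219, GRE225, GRE84 and GRE261. In the other direction, GRE92 came to 2.02 without 1-1 or 1-4, and GRE109 came to between 2.01 and 2.19 without 1-1, 1-2, 1-3, 1-5 or 2-4.

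GRE222 is the GRE with the start of Sst (chr16:23890469-23890956), with 138 bases that code for the N-terminal part of the peptide's precursor. It had 210 UMIs in kept nuclei, of which its second barcode gave 182, and between 11 and 30 UMIs per library with a median of 22.5. Only 7 of these UMIs lay in SST-gated nuclei, in 4 nuclei, and 137 lay in excitatory nuclei. Its level per nucleus was 0.0111 UMIs (0.00447 to 0.0229) in SST, 0.0184 in PV, 0.0155 in VIP and 0.00823 in excitatory nuclei, and the intervals of SST, PV, VIP and excitatory nuclei overlap. The SST fold was 1.29 (0.877 to 2.01), with 0.960 in library set 1 and 1.68 in set 2, and 4 of 10 libraries were above 1. The Sst transcript itself, which set the gate, had 12007 UMIs in the same 630 nuclei and a level, per 10000 UMIs, of 237.9 times that in all other nuclei. The added 0.01 is close to the levels of this GRE and holds its fold near 1. Without it the fold was 1.74, with an interval of 0.689 to 3.64, so that a preference for SST nuclei was not detectable at this depth.

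The 5 GREs in the last of several exons had between 1411 and 8686 UMIs each and a median SST fold of 2.38, from 1.89 to 2.96. GRE219 lies in exon 11 of 11 of Rcor3 (chr1:192101400-192101794), which encodes a CoREST family corepressor, and 202 of its 395 bases are coding. It had 3430 UMIs, with 145, 374 and 443 as the lowest, median and highest of the libraries, and 9 of 10 libraries had a fold above 1. Its SST fold was 2.96 (2.57 to 3.39), with 1.49 in library set 1 and 4.98 in set 2. The PV fold was as high, 3.01 (2.37 to 3.77), though 58.9% of the 73 PV UMIs came from 1 nucleus, while in VIP nuclei the fold was 0.407 (0.273 to 0.602). The interval of the SST fold lay above that of the VIP fold.

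GRE225 covers the last coding bases of Nr4a3 (chr4:48083084-48083383), an orphan nuclear receptor that neurons induce on activity. It had 1659 UMIs, 1410 of them from its first barcode, and 42, 168 and 281 UMIs as the lowest, median and highest of the libraries. The SST fold was 2.85 (2.34 to 3.45), and it was above 1 in 6 of 10 libraries, from 0.270 in library 2-1 to 7.22 in library 2-2. The PV fold of 4.61 (3.53 to 5.94) was the highest of any of the 15 GREs with 300 UMIs or more in any class. It rested on 58 UMIs, of which 37.9% came from 1 nucleus, and its interval lay above that of the SST fold. Without that nucleus the PV fold was 2.94, inside the SST interval, so the separation rested on 1 nucleus. Of the 100 SST UMIs, 24.0% came from 1 nucleus. In VIP nuclei the fold was 1.36 (0.987 to 1.85), which was the highest VIP value among the 15, and 33.3% of the UMIs came from 1 nucleus. Without its first barcode the SST fold was 1.66, and against PV, VIP and NPY nuclei it was 1.43.

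The remaining last-exon GREs had lower SST folds. GRE287 is wholly coding sequence of Xk on the X chromosome (chrX:9308928-9309227), a membrane protein linked to the Kell blood group antigen, and had an SST fold of 2.38 (1.90 to 2.96) and a PV fold of 4.12 (3.05 to 5.47). The SST fold was 1.36 in library set 2, 1.54 without the 1% of nuclei with most viral UMIs and 1.47 against PV, VIP and NPY nuclei. GRE109 in the last exon of Nrp1 (chr8:128502516-128502973), a receptor for semaphorins and VEGF, had an SST fold of 1.96 (1.62 to 2.35), with 0.874 in library set 1 and 3.56 in set 2. Its microglial fold of 1.26 was the highest among the 15 in that class, on 29 UMIs, of which 82.8% came from 1 nucleus. GRE92 lies wholly in the 3′ UTR of Hmbox1 (chr14:64822876-64823265), a homeobox protein, and had 8686 UMIs with an SST fold of 1.89 (1.69 to 2.11) and a PV fold of 2.73 (2.33 to 3.19).

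Of the 12 GREs in other coding exons, which include the single exon of Olfr1494, 9 had an SST fold above 2, against 50.2% of all GREs, with a median of 2.29 and a range from 0.895 to 3.60. The count includes GRE272 and GRE39, most of whose SST UMIs came from 1 nucleus each. Among library GREs with 300 UMIs or more the share above 2 was 71.5%. The 12 were not matched to the library in UMIs. GRE89 in Emb (chr13:117267283-117267582) had 15649 UMIs, with 447, 1444 and 2296 as the lowest, median and highest of the libraries. Its level was 0.992 UMIs per SST nucleus, 0.757 per PV, 0.608 per excitatory, 0.494 per VIP and 0.420 per NPY nucleus. The SST fold was 2.07 (1.91 to 2.24), and 8 of 10 libraries were above 1. It was 1.77 in library set 1, 2.60 in set 2, 1.66 without the 1% of nuclei with most viral UMIs, 1.79 with Leiden clusters, 1.62 against excitatory and 1.85 against PV, VIP and NPY nuclei, so that the call above 2 ended in all of these but set 2. Its excitatory fold of 1.71 (1.65 to 1.76) was the highest in excitatory nuclei among the 15. The 2 barcodes that carried nearly all of the UMIs, 7810 and 7666, had SST folds of 1.98 and 2.03, and the third had 173 UMIs.

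GRE84 lies in exon 7 of 31 of Ptprt (chr2:162135151-162135483), a receptor-type tyrosine phosphatase of neurons. It had 2594 UMIs, and its SST fold was 2.77 (2.35 to 3.25), against 1.33 (0.893 to 1.93) in PV and 0.722 (0.506 to 1.02) in VIP nuclei. The SST interval lay above those of PV and VIP, whereas for GRE219 the intervals of SST and PV overlapped. Its vascular fold of 0.717 was the highest in that class among the 15, on 28 UMIs, of which 60.7% came from 1 nucleus. The libraries differed widely. In set 1 the fold was 1.30 and in set 2 it was 5.07, with a lowest value of 0.223 in library 1-3 and a highest of 12.5 in library 2-5. Its 3 barcodes had folds of 3.37, 2.91 and 1.33, and without the 1% of nuclei with most viral UMIs the SST fold was 1.72.

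GRE115 covers exon 84 of 90 of Adgrv1 (chr13:81283260-81283559), a very large adhesion G protein-coupled receptor. Its SST fold of 2.51 (2.00 to 3.12) was above 1 in 9 of 10 libraries and came to 1.84 without the 1% of nuclei with most viral UMIs, and its astrocyte fold of 0.907 was the highest in that class among the 15. The PV fold was 2.81 (1.94 to 3.96) on 29 UMIs, of which 55.2% came from 1 nucleus. GRE261 in Unc13b (chr4:43182632-43183064), a priming factor of synaptic vesicles, had 4621 UMIs and an SST fold of 2.46 (2.15 to 2.80), against 1.81 in PV nuclei. It was 1.67 in library set 1, 1.66 without the 1% of nuclei with most viral UMIs and 1.97 against PV, VIP and NPY nuclei. Only 91 of its 433 bases are exonic. GRE82 is coding sequence of the olfactory receptor gene Olfr1494 (chr19:13749600-13749899) over its whole length. It had an SST fold of 2.31 (1.95 to 2.72), a PV fold of 2.93 (2.27 to 3.74) and an NPY fold of 2.15 (1.67 to 2.75), although the Olfr1494 transcript itself had 2 UMIs in all kept nuclei. Of its PV UMIs 30.7%, and of its NPY UMIs 34.4%, came from 1 nucleus each, and without that nucleus the folds were 2.07 and 1.45. The SST fold was 1.19 without its second barcode and 1.38 against PV, VIP and NPY nuclei. GRE124, with 53 of its 327 bases in exon 3 of Ranbp10 (chr8:105805388-105805714), had an SST fold of 2.28 (1.78 to 2.88), and 1.18 without the 1% of nuclei with most viral UMIs. Of its 60 SST UMIs, 25.0% came from 1 nucleus.

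GRE62 was the widest of the set, 719 bp of coding exon 4 of Ythdf3 (chr3:16204032-16204750), a reader of methylated adenosine in RNA. It had 380 UMIs, an SST fold of 2.11 (1.49 to 2.96) and an NPY fold of 4.16 (2.80 to 6.02). Single nuclei gave most of the signal behind this value, with 95.7% of its 23 NPY UMIs and 85.7% of its 14 PV UMIs from 1 nucleus each. Of its 22 SST UMIs, 40.9% came from 1 nucleus, and without that nucleus the SST fold was not above 2. Its oligodendrocyte fold of 1.35 was the highest in that class among the 15, on 25 UMIs, of which 52.0% came from 1 nucleus. Signals of a single nucleus also lay behind the largest SST fold of the set. GRE272 in exon 7 of 22 of Epb41l3 (chr17:69247468-69247767), a membrane skeleton protein, had 191 UMIs and an SST fold of 3.60 (2.61 to 4.88), and 82.1% of its 28 SST UMIs came from 1 nucleus. The fold was 1.30 without its second barcode and 1.17 without the 1% of nuclei with most viral UMIs.

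The lowest SST folds with at least 300 UMIs belonged to GRE119 and GRE208. GRE119, in exon 7 of 11 of the BMP receptor gene Bmpr1b (chr3:141857171-141857666), had 559 UMIs and an SST fold of 1.07 (0.725 to 1.59), with 1.01 in library set 1 and 1.14 in set 2, and its excitatory fold was 1.53 (1.37 to 1.70). GRE208, in exon 6 of 11 of the transcriptional corepressor gene Cbfa2t2 (chr2:154517535-154517985), had 995 UMIs and an SST fold of 1.63 (1.20 to 2.18), with 2.26 in set 1 and 0.912 in set 2. Its PV fold was 0.469 (0.271 to 1.06) on 2 UMIs. The fold of GRE119 was thus near 1 in both sets, and that of GRE208 was not.

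The GREs past a gene end or in a non-coding exon were few and mostly thin in UMIs. GRE127, annotated to the TTS of Gm6878 (chr14:67303845-67304144), had 494 UMIs and an SST fold of 2.75 (2.04 to 3.66), against 1.12 in PV and 1.16 in excitatory nuclei. The fold was 1.92 in library set 1, 4.38 in set 2 and 1.67 without barcode 3, and its precursor cell fold of 0.741, on 2 UMIs, was the highest in that class among the 15. Of the 36 SST UMIs of GRE127, 27.8% came from 1 nucleus. GRE166 has its centre 509 bp past the end of 1700019A02Rik (chr1:53157919-53158218) and had 38 UMIs with an SST fold of 1.04 (0.897 to 1.66). GRE281 in exon 2 of the non-coding gene Gm16863 (chr16:21282275-21282650) had 24 UMIs and an SST fold of 1.54 (1.10 to 2.31). Coding GREs of like depth were GRE193, 460 bp of coding exon 6 of the coactivator gene Ncoa6 (chr2:155421078-155421537), and GRE39 in the first exon of the protocadherin gene Pcdhgb5 (chr18:37732558-37732857). GRE193 had 37 UMIs, none of them in SST nuclei, and a fold of 0.895, and GRE39 had 44 UMIs, with 90.0% of its 10 SST UMIs from 1 nucleus.

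A PV fold above 2 was found for 8 of 21, against 40.4% of all GREs, and the median PV fold was 1.73 in both. Some of these folds rested on few nuclei, with 5 PV UMIs for GRE272 and over 50% of the PV UMIs from 1 nucleus for GRE62, GRE219 and GRE115. Without the nucleus that held most of a GRE's PV UMIs, which lowers a fold by construction, 3 of 21 were above 2 (GRE225, GRE287 and GRE82), against 18.5% of all GREs. Left out in the same way in SST nuclei, it was 7 of 21 (GRE219, GRE84, GRE225, GRE261, GRE127, GRE115 and GRE82), against 35.9%. These settings were added after the data were seen. With all nuclei, 7 of 21 were above 2 in both SST and PV nuclei, against 28.6% of all GREs, and 6 of 21 in SST but not in PV nuclei (GRE89, GRE84, GRE124, GRE261, GRE127 and GRE39), against 21.6%. GRE92 was above 2 in PV only, as were 11.8% of all GREs. The difference between the folds in SST and PV was not tested. None of the 21 was above 2 in VIP nuclei, against 1.74% of all GREs, and 2 of 21 were above 2 in NPY nuclei (GRE62 and GRE82), against 7.67%. Without the nucleus that held most of a GRE's NPY UMIs, none of the 21 was, against 0.697%. The median fold was 1.29 in excitatory nuclei. It was 0.715 in astrocytes, 0.486 in oligodendrocytes, 0.458 in their precursors, 0.407 in microglia and 0.381 in vascular nuclei. These folds are not scaled to the non-viral UMIs of a class, which differ between classes, and the part of depth in them was not tested. Excitatory nuclei held 62.1% of the UMIs of the 21 GREs, 60.6% of those of all GREs and 51.5% of kept nuclei.

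Apart from Sst, none of the genes that these GREs overlap reached a level in SST nuclei of 2 times that in other nuclei, where both could be measured. Of these host genes, 13 had more than 3 UMIs both in SST-gated and in other nuclei. For these 13, Sst aside, levels per 10000 UMIs in SST nuclei were between 0.297 and 1.52 times those in other nuclei, with a median of 1.07. This limit leaves out genes that are low in SST nuclei, so the range and the median do not cover them. Nr4a3 was the lowest of the 13, at 0.156 UMIs per 10000 in SST and 0.527 in other nuclei. Outside the limit, Nrp1 had 0.0313 in SST and 0.591 in other nuclei, on 2 and 1645 UMIs. Bmpr1b, also outside it, had 0.0156 and 0.109, on 1 and 304 UMIs. Xk was the highest apart from Sst, at 0.532 and 0.349. Ptprt had 1.96 and 1.58, and Rcor3 had 0.688 and 0.521. Emb was higher in VIP nuclei (2.05) and microglia (2.20) than in SST nuclei (0.454), while GRE89 was lower in both than in SST nuclei. Bmpr1b was a transcript of astrocytes, at 1.49 per 10000 against 0.0156 in SST nuclei, and the astrocyte fold of GRE119 was 0.600. The ratio was below 1 for 5 of the 13 host genes (Nr4a3, Emb, Hmbox1, Cbfa2t2 and Ythdf3). A gene's ratio is per 10000 UMIs and a GRE's fold is per nucleus, so the scales differ, and the relation between a gene and its GRE was not tested.

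In ATAC-Seq, the 6 samples had between 1801883 and 2256073 reads over the reference regions. The study chose the library for more reads in SST than in PV and VIP nuclei, so these values are a description of the choice. The 21 regions had 107 and 121 reads in the SST replicates, 7 and 3 in PV and 8 and 6 in VIP. All 287 GREs together had 1028 and 2446 SST reads, 93 and 80 PV reads and 54 and 70 VIP reads. Replicate 2 thus had most of the SST reads of the library and about as many as replicate 1 for the exonic and gene end regions. GRE222 had 33 and 32 SST reads, 2 in each PV replicate and 4 in each VIP replicate, the most of the set in every cell type. GRE219 followed with 12 and 13 SST reads, and 1 read in each of the other 4 samples. The remaining 19 regions had between 3 and 13 SST reads over both replicates.

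A peak in both SST replicates covered GRE219 and GRE222, and a peak in 1 covered GRE109, GRE127, GRE166 and GRE281. The other 15 of the 21 had no peak in either SST replicate. Of all 287 GREs, 34 had a peak in both replicates, 124 in 1 and 129 in none. The peak at GRE222 had a −log10 q of 28.1 and 33.7, and that at GRE219 of 7.93 and 9.73. No region of the 21 had a peak in PV or VIP, where 5 of all GREs had one. In the screen, the SST folds of these 2 GREs were 2.96 for GRE219 and 1.29 for GRE222. Without the added 0.01 they were 3.15 (2.72 to 3.63) and 1.74 (0.689 to 3.64), whose intervals overlap, and the difference was not tested.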

How the data were processed

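The members and lists were chosen with earlier results of these data known. Per the labels and the paper's methods, the authors' inDrops pipeline mapped to GRCm38 plus 1 contig for each viral barcode. The deposited counts are UMIs in each droplet barcode and are not normalized. Viral transcripts were also enriched by PCR before sequencing. For ATAC-Seq, the authors' processing notes name Trimmomatic 0.33, Subread 1.4.6-p3, MACS2, HOMER and featureCounts. The deposited read counts over reference regions are not normalized, the deposited peak lists give a −log10 q-value, the authors' 0 and 1 marks of peaks were not used, and the phyloP score was deposited with the regions. The authors' own fold columns for each GRE were not used. The annotation of each GRE is the authors', and it covers the region without the flanks that were cloned with it.

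Here, GRE UMIs were summed over 3 barcodes in nuclei with more than 200 non-viral UMIs. Marker gates needed 3 UMIs and a margin of 2 times. The NPY list did not compete where Sst was at least as high, a rule set after nuclei counts, but not viral values, had been seen. The 303 viral barcode columns paired with no GRE were left out. The study's methods give 5 libraries per animal, and no label names one. Intervals are exact binomial (folds, shares) or Poisson (levels). The ATAC fold used a pseudocount of 0.5 after conserved regions were scaled to 10000000 reads. The NFI motif was its palindrome with any bases as spacer. Sequence came from GRCm38.p6 and gene models from RefSeq. The transcript of Gm6878 was not found in these gene models, so the place of GRE127 rests on the deposited annotation and was not checked. The calculation of the fold was checked on simulated Poisson counts and that of the gate on made-up marker counts. The simulated counts had no nucleus with most of a GRE's UMIs, so they do not bear on such folds. Every GRE was named, and those described in most detail were the one that overlaps Sst, the 3 highest and 2 lowest by SST fold and the highest in each other class, among GREs with 300 UMIs or more. GRE272, GRE287 and the GREs beyond this rule were described after their values were seen. Alternatives were other pseudocounts, gates, references, libraries, barcodes and Leiden clusters. Calculations used python 3.11.15, numpy 2.4.6, scipy 1.17.1, pandas 2.3.3, scanpy 1.11.5 and samtools 1.23.1.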

Additional observations from a re-analysis of the deposited data

Results flagged for a closer look

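Droplets at or under 200 non-viral UMIs, which no comparison used, held 12446 UMIs of the 21 GREs, 9.84% of the GRE UMIs in these 15013 droplets, against 9.79% in kept nuclei. Per 1000 non-viral UMIs they carried 70.4 viral UMIs, against 17.9 in kept nuclei. In kept nuclei, 297 of the 303 viral barcode columns that the deposited table pairs with no GRE had at least 1 UMI, with 5791 UMIs in all and 1.14% of viral UMIs.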

How the results depend on the processing

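The median SST fold of the 21 GREs, 2.28, was 1.43 with 0.1 added to the means and 1.67 in library set 1. It was 1.54 without the 1% of nuclei with most viral UMIs and 1.70 against PV, VIP and NPY nuclei. Without the top SST nucleus of each GRE it was 1.73 (1.46 in all GREs). Under the other settings it moved by less than the spread over libraries, with 2.03 to 2.43 without each library. The median of the 21 was not always above that of all GREs. It was 0.947 against 1.38 within library 1-3, and 2.20 against 1.71 within library 2-2. The 13 of 21 GREs above 2 (61.9%, against 50.2% of all 287) became 1 (4.76%, against 19.2%) with 0.1 added and 3 (14.3%, against 31.7%) without the 1% of nuclei with most viral UMIs. They became 8 (38.1%) with Leiden clusters (against 44.3%), in library set 1 (43.6%) and against excitatory nuclei (41.1%), and 7 (33.3%, against 33.1%) against PV, VIP and NPY nuclei and 7 (against 35.9%) without the top SST nucleus of each GRE. Without each library there were 11 to 15. The share in SST nuclei, 7.30%, was 7.04% to 7.56% without each library, 6.64% and 7.98% in library sets 1 and 2, and 7.79% without the top 1% of nuclei, and was 5.36% without GRE89 and 4.33% without GRE89 and GRE92. It stayed below that in other nuclei under all 17 alternatives run for the share. Leiden clusters, the lower gate minimum and leaving out a viral barcode were not among them. The median ATAC fold was 107 in the 21 GREs and in all GREs. Without SST replicates 1 and 2 it was 49.9 and 117 in the 21 and 148 and 13.0 in all GREs. In the 21 it was 107 to 134 without each PV or VIP replicate, 532 with a pseudocount of 0.1 and 20.2 with scaling over all regions. Most of these regions had no PV or VIP read, so the pseudocount sets this fold. Folds above 2 that fell below 1 were GRE272 (0.929 in library set 2), GRE39 (0.919 without library 1-2, 0.906 in library set 2 and 0.921 without the top 1% of nuclei) and GRE62 (0.931 in library set 1 and 0.928 against PV, VIP and NPY nuclei). The cause of these changes was not tested. With the replicate number as a block, a setting added after the data were seen in which the fold is taken within each number, the median ATAC fold was 93.4 in the 21 and 48.2 in all GREs. The labels do not say that a number marks a shared animal or day. With 630 SST nuclei, GREs under 300 UMIs had at most 28 UMIs in SST nuclei, which limits their folds.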
